A study of Danio rerio with 30 samples.

Results

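Of 8866 rows in a table of miRNA read counts from zebrafish spleen, 3 carry the human miRNA names hsa-miR-1260a, hsa-miR-1260b and hsa-miR-7977. They were chosen by name, as rows named after another species with high counts and with a lower CPM (a row's reads as a share of the library, on a fixed scale) at an incubation temperature of 32 °C, so their differences between 32 °C and the other temperatures are described here without a test. All 3 had reads in 30 of 30 libraries and passed the filter on low counts, which kept 364 rows. No row of another species bearing the name miR-1260 or miR-7977 was found in the table, where 2652 rows have human names, 461 of them with a count and 28 of them tested.

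The libraries came from spleens of adult AB zebrafish at 100 days after fertilisation, whose embryos and larvae were kept at 24, 28 or 32 °C. At each temperature 5 libraries came from control fish and 5 from fish that received 2 µl of Pseudomonas aeruginosa lipopolysaccharide (LPS, a bacterial outer-membrane component that sets off an innate immune response) at 50 mg/ml into the body cavity 12 h before the spleen was taken. Whether controls were injected, and whether each library is its own fish, is not given in the labels, so every p-value here refers to the spread among libraries, which may be technical. The labels address whether incubation temperature leaves a lasting difference in the adult miRNA profile, and whether the LPS response differs with it.

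MicroRNAs are short RNAs cut from hairpin precursors that repress messenger RNAs by pairing with them through a seed near the 5′ end. In human cells miR-1260b has been studied as a repressor of the Wnt antagonists SFRP1 and DKK2, and miR-7977 as an exosome-carried RNA of leukaemia cells. In human databases these names are also among those noted to overlap the ends of transfer RNAs (tRNAs), the adaptor molecules of translation, whose fragments enter small RNA libraries. The reads behind the rows, and whether they are zebrafish miRNAs or fragments of other small RNAs, were not tested here, because the table gives names and counts alone. Sequences of the 3 rows were not used here.

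Library totals ran from 199431 to 7584818 counts (median 695337), with medians of 352753.5, 697494 and 1066364 for 24, 28 and 32 °C, so totals and temperature moved together. Of defining spleen miRNAs, the lymphocyte miRNA miR-150 and the red-cell miRNA miR-451 were counted in 30 of 30 libraries and the myeloid miR-223 in 29. The other red-cell miRNA, miR-144, was counted in 29 libraries as miR-144-5p but in 5 as miR-144-3p. Of miR-142, common to blood cells, miR-142a-3p was counted in 16 and miR-142a-5p in 8, and miR-155, of activated leukocytes, in 13. These counts and the lists below cover zebrafish-named rows only, and rows named after other species also held reads of such names. Of these, hsa-miR-155-5p was counted in 26 libraries with a mean of 197 CPM. The means of gmo-miR-223a-3p and oni-miR-150 were 1460 and 6529 CPM. A low count under a zebrafish name thus does not show that the miRNA was absent. The leukocyte list (miR-142, miR-223, miR-150 and miR-155, zebrafish rows) held 0.0938 to 0.725% of the counts of a library, and the liver miRNA miR-122, of a neighbouring organ, 0.00380 to 3.86%. At 32 °C miR-122 held 1.07 ± 1.06% in controls and 0.860 ± 1.68% in LPS fish, against 0.0953 ± 0.0532 to 0.241 ± 0.305% in the other groups (SD, n = 5 each). The medians at 32 °C were 0.952% in controls and 0.0847% in LPS fish, whose mean rested on 1 library at 3.86%. The pancreas list held 0.0108 to 0.907%, while muscle and gut lists were at 0 in 9 and 12 libraries. The part of other tissue in the differences between temperatures was not tested.

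hsa-miR-1260b and hsa-miR-1260a were among the most abundant rows of these spleens. By mean CPM over the 30 libraries, after TMM scaling (the trimmed mean of M-values method of edgeR), hsa-miR-1260b ranked 16 of the 364 tested rows with 8740.1 ± 5818.5 CPM, hsa-miR-1260a ranked 20 with 8234.4 ± 5597.4 CPM, and hsa-miR-7977 ranked 49 with 1693 ± 1048 CPM (SD, n = 30). The hsa-miR-1260 rows lay next to zebrafish miRNAs such as miR-22a-3p with a mean of 8839.7 CPM, miR-26a-5p, a repressor of ezh2, with 8418 CPM and miR-146a, the NF-κB-induced brake on Toll-like receptor signalling, with 6864 CPM. Among human-named rows they were the 3 most abundant and held 35.9% (hsa-miR-1260b), 33.9% (hsa-miR-1260a) and 6.69% (hsa-miR-7977) of all human-named counts. Together the 3 rows held 2.00 ± 1.40% of the counts of a library (SD, n = 30), from 0.0379 to 6.83%.

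In controls at 24 °C hsa-miR-1260a stood at 4602, 7959, 9713, 10055 and 10103 CPM. In LPS fish at 24 °C it stood at 7182, 7822, 8413, 8754 and 25351 CPM. All LPS libraries but the highest, replicate 8, lay inside the range of the controls.

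At 28 °C the control libraries held 6992, 7592, 10152, 13298 and 14583 CPM of hsa-miR-1260a. The LPS libraries held 4269, 9774, 12127, 15067 and 20277 CPM. The spread was wider than in controls, with 1 LPS library below all 5 controls and 2 above them.

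At 32 °C the controls held 259.9, 1699.7, 2241, 5419 and 5935 CPM of hsa-miR-1260a, and the LPS fish 865, 1375, 2737, 6181 and 6235 CPM. The LPS and control libraries interleaved, and each group spanned a wide range. Ordered by group median, the levels were 12127 CPM at 28 °C with LPS, 10152 in 28 °C controls, 9713 in 24 °C controls, 8413 at 24 °C with LPS, 2737 at 32 °C with LPS and 2241 in 32 °C controls. The 4 groups at 24 and 28 °C overlapped throughout, as did both groups at 32 °C.

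hsa-miR-1260b followed the same order of libraries and levels almost point for point. Its group means were 8988 ± 2427 CPM in 24 °C controls, 12013 ± 7456 with LPS at 24 °C, 11275 ± 3702 in 28 °C controls, 13124 ± 6453 with LPS at 28 °C, 3462 ± 2824 in 32 °C controls and 3579 ± 2649 with LPS at 32 °C (SD, n = 5 each). Its lowest library, at 271 CPM, and its highest, at 25307 CPM, were those of hsa-miR-1260a.

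hsa-miR-7977 stood at 1869, 1949, 1974, 2169 and 4614 CPM in 24 °C controls and at 1882, 2137, 2459, 2688 and 2898 CPM with LPS at 24 °C. All but replicate 3 of the controls, the highest, lay between 1869 and 2898 CPM. At 28 °C it stood at 1284, 1887, 2122, 2404 and 2548 CPM in controls and at 429.9, 1763, 1767, 2202 and 2424 CPM with LPS. The lowest LPS library at 28 °C was replicate 8, which was also the deepest of that temperature with 3903189 counts.

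At 32 °C hsa-miR-7977 stood at 41.8, 346, 353, 1930.3 and 2552 CPM in controls and at 159, 197, 232, 699.9 and 797 CPM with LPS. The controls split into 2 libraries at the levels of 24 and 28 °C and 3 far below, while all 5 LPS libraries lay inside the range of the controls and at or below 797 CPM.

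**Figure D1:**
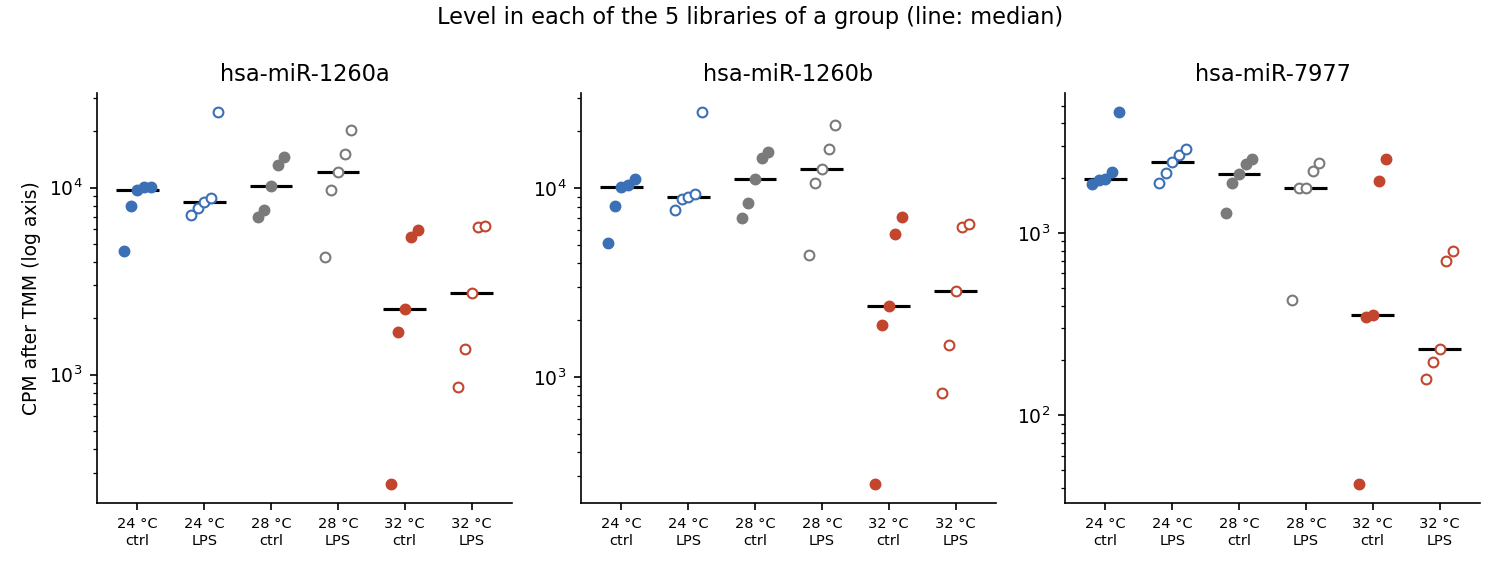
CPM after TMM scaling (log axis) of each row in every library, by incubation temperature and treatment, with filled points for controls, open points for LPS fish and a line at the group median (n = 5 per group). The 32 °C medians lie below those at 24 and 28 °C for each row, and some 32 °C libraries reach the lower edge of the other groups for hsa-miR-1260a and hsa-miR-1260b, while for hsa-miR-7977 the highest 32 °C library, at 2552 CPM, lies above all 28 °C libraries.

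The rows hsa-miR-1260a and hsa-miR-1260b carried nearly equal counts in every library. The ratio of hsa-miR-1260b to hsa-miR-1260a was 1.06 ± 0.0480 (SD, n = 30), from 0.952 to 1.19, and it was above 1 in 27 of 30 libraries, while the counts of hsa-miR-1260a themselves ranged 14.6-fold between libraries, from 1130.0 to 16515. At the extremes hsa-miR-1260b made up 48.8% of the pair's reads (95% exact Clopper-Pearson interval 47.4 to 50.1%) in replicate 5 of the 32 °C LPS fish and 54.4% (52.5 to 56.2%) in replicate 3 of the 32 °C controls. Such intervals cover counting error only, since PCR copies are not independent molecules. The ratio averaged 1.06 at each of the 3 temperatures, with SDs of 0.0494, 0.0328 and 0.0623 (24, 28 and 32 °C, n = 10). Across the 30 libraries the log2 CPM of these rows correlated at r = 0.999 (Pearson, a description over libraries that share their depth). The sources used here do not say how reads that match several reference names were counted, so the rows cannot be taken as separate measurements, and with their counts summed the log2 difference was −1.57 between 32 and 24 °C and −1.90 between 32 and 28 °C.

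hsa-miR-7977 was tied less tightly to them. Its reads amounted to 0.108 ± 0.0534 of the reads of the hsa-miR-1260 rows together (SD, n = 30), and this ratio ranged 8.10-fold, from 0.0283 to 0.229. In 24 °C fish it was 0.149 ± 0.0607 (controls) and 0.127 ± 0.0519 (LPS), in 28 °C fish 0.103 ± 0.0386 and 0.0708 ± 0.0301, and in 32 °C fish 0.126 ± 0.0646 and 0.0691 ± 0.0328 (SD over 5 libraries). The mean was lower with LPS at each temperature, but the groups overlapped. On the log2 scale, with 0.5 counts added to each, LPS minus control was −0.29 at 24 °C (exact permutation test, two-sided, p = 0.611, and 0.611 after adjustment over the 3 temperatures), −0.54 at 28 °C (exact p = 0.206, adjusted p = 0.310) and −0.88 at 32 °C (exact p = 0.0952, adjusted p = 0.286). With 5 libraries against 5 the smallest p this test can give is 0.00794. The ratio lay below the control median in 2, 5 and 4 of 5 LPS libraries at 24, 28 and 32 °C. Without replicate 8 of the 24 °C LPS fish the 24 °C difference turned to 0.07.

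**Figure D2:**
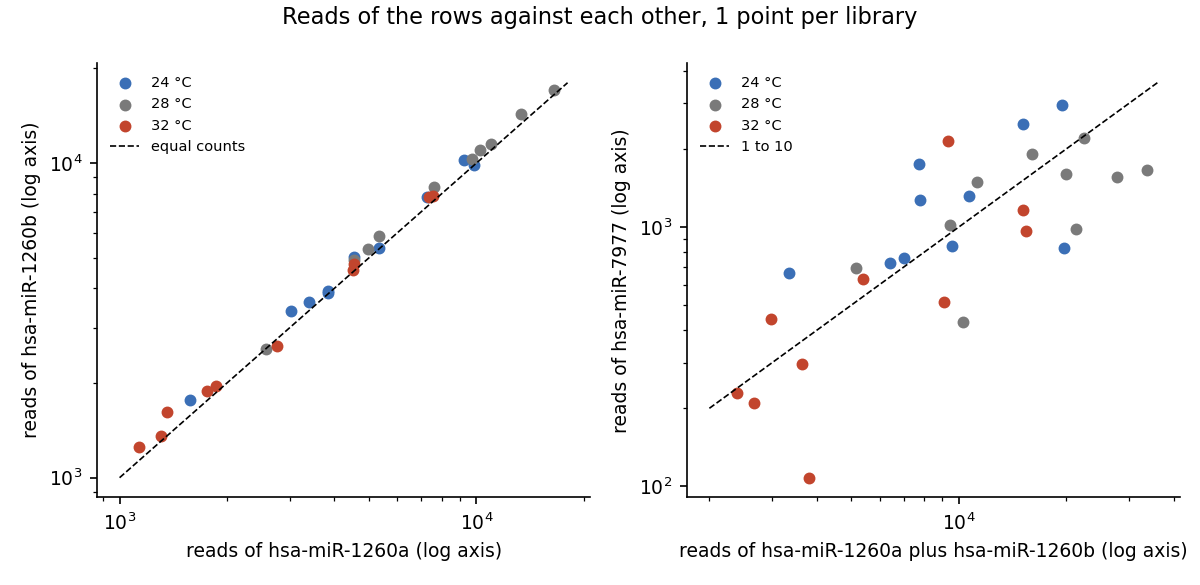
Reads per library on log axes, coloured by incubation temperature, of hsa-miR-1260b against hsa-miR-1260a (left, dashed line at equal counts) and of hsa-miR-7977 against the sum of those rows (right, dashed line at 1 to 10). On the left the libraries hug the line at a mean ratio of 1.06, and on the right they scatter from 0.0283 to 0.229.

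LPS did not move any of the rows past the threshold at any temperature. In hsa-miR-1260a the log2 difference between LPS and control was 0.44 ± 0.59 (SE) at 24 °C, 0.23 ± 0.59 at 28 °C and 0.16 ± 0.59 at 32 °C, none past the adjusted threshold of 0.05 (edgeR quasi-likelihood test with Benjamini-Hochberg adjustment over all tested rows, as for each adjusted p that follows). hsa-miR-1260b had 0.42 ± 0.59, 0.22 ± 0.59 and 0.05 ± 0.59. Averaged over the temperatures the differences were 0.28 with a 95% interval of −0.41 to 0.96 in hsa-miR-1260a and 0.23 with −0.46 to 0.92 in hsa-miR-1260b (edgeR, adjusted p = 0.942 each). hsa-miR-7977 had −0.06 ± 0.71 at 24 °C, −0.26 ± 0.71 at 28 °C and −1.32 ± 0.73 at 32 °C, the last with an interval of −2.79 to 0.15 and an unadjusted p of 0.0763 (edgeR, adjusted p = 0.999). Its average was −0.55 with an interval of −1.38 to 0.29 (edgeR, adjusted p = 0.730). Of the 3 rows 0 were called in any of these contrasts, where 0% of all rows were called at 24 °C (44 rows at an unadjusted p under 0.05, with 21 called by DESeq2 and 0 by voom), 0% at 28 °C (48, with 18 and 4), 0% at 32 °C (7, with 1 and 1) and 0.549% on average (38, with 19 and 0). DESeq2 and voom called 0 of the 3 rows too.

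Whether the LPS effect differed between temperatures was tested jointly. The adjusted p was 1.00 for each row (edgeR, unadjusted p = 0.941 in hsa-miR-1260a, 0.906 in hsa-miR-1260b and 0.415 in hsa-miR-7977), and 0% of all rows were called (44 at an unadjusted p under 0.05, with 1 called by DESeq2 and 2 by voom). The single value that leant furthest, hsa-miR-7977 at 32 °C, was −0.68 without replicate 5 of the 32 °C LPS fish and 0.09 with voom, which weights libraries.

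**Figure D3:**
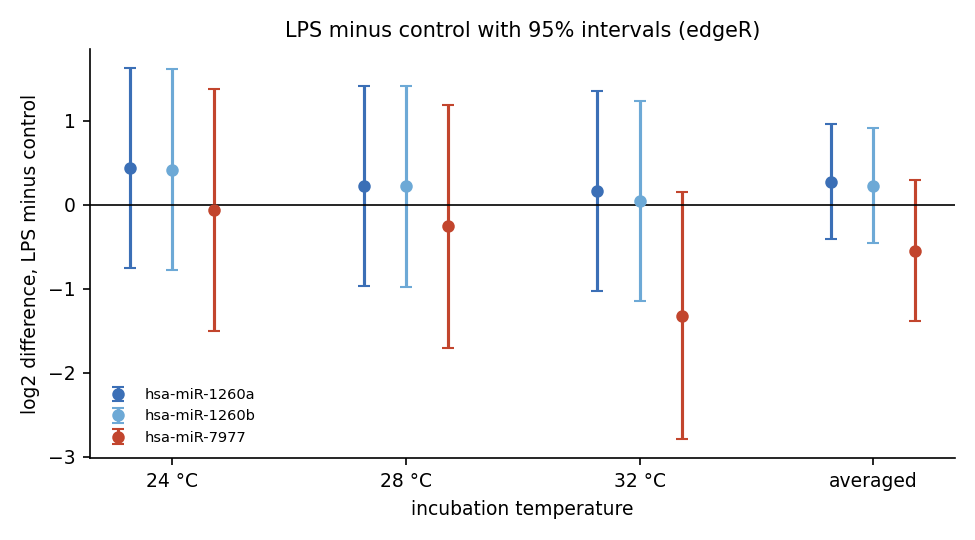
Log2 difference between LPS and control libraries of the 3 rows at each incubation temperature and averaged over them, with 95% intervals from the edgeR fit (30 libraries). Every interval crosses 0, and that of hsa-miR-7977 at 32 °C, from −2.79 to 0.15, reaches lowest.

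Between 24 and 28 °C, the temperatures that the choice of rows did not set apart, no row passed either. hsa-miR-1260a averaged 9995 ± 5635 and 11413 ± 4660.5 CPM at these temperatures (SD, n = 10), a log2 difference of −0.20 with an interval of −1.05 to 0.64 (edgeR, adjusted p = 0.865). hsa-miR-1260b had −0.23 with an interval of −1.07 to 0.62 (edgeR, adjusted p = 0.844). hsa-miR-7977, at 2464 ± 834 and 1883 ± 638 CPM, had 0.39 with an interval of −0.63 to 1.42 (edgeR, adjusted p = 0.834). Over all rows 0% were called (55 at an unadjusted p under 0.05, with 35 called by DESeq2 and 5 by voom). With total-count scaling the values of hsa-miR-1260a and hsa-miR-1260b turned to 0.04 and 0.02, and without a count filter that of hsa-miR-7977 turned to −0.31.

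At 32 °C the rows were lower, which is how they were chosen. hsa-miR-1260a averaged 3295 ± 2386 CPM (SD, n = 10), and 10 of 10 libraries lay below the 24 °C median and below the 28 °C median, while 4 lay inside the range of the 24 °C libraries and 4 inside that of the 28 °C libraries. hsa-miR-7977 averaged 731 ± 842 CPM, with 9 of 10 libraries below the median of either temperature, 8 below all 24 °C libraries and 6 below all 28 °C libraries. The fitted log2 difference between 32 and 24 °C was −1.59 ± 0.43 (SE) in hsa-miR-1260a, −1.56 ± 0.43 in hsa-miR-1260b and −1.90 ± 0.52 in hsa-miR-7977, and between 32 and 28 °C −1.79 ± 0.43, −1.79 ± 0.43 and −1.51 ± 0.52. Split by treatment, hsa-miR-1260a was lower at 32 than at 24 °C by values of −1.45 ± 0.60 in controls and −1.73 ± 0.61 in LPS fish. hsa-miR-7977 had −1.27 ± 0.73 in controls and −2.53 ± 0.76 in LPS fish, and this gap belongs to the joint test above, which it did not pass.

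The median of all rows depended on the scaling, at 0.81 between 32 and 24 °C with TMM, 0.40 with RLE (DESeq2's median-ratio scaling), 0.18 with total counts and −0.58 with TMM factors from zebrafish rows alone, where it took the sign of the 3 rows. Relative to the median row, hsa-miR-1260a lay at −2.40 with TMM, −2.04 with RLE, −2.17 with total counts and −1.67 with zebrafish-row TMM, and hsa-miR-7977 at −2.71, −2.33, −2.45 and −1.91. Of the 364 rows 42 lay lower than hsa-miR-1260a in this contrast and 28 lower than hsa-miR-7977. By kind of name the median was 1.25 over zebrafish rows, 0.75 over rows of other species and −0.79 over rows named by a chromosome and a number. Over the 25 other human-named rows it was −1.05. Shares of a library's counts were, for 24, 28 and 32 °C in turn, 79.9 ± 4.94, 84.3 ± 3.12 and 90.5 ± 2.28% for zebrafish names and 7.07 ± 3.47, 5.66 ± 2.09 and 2.24 ± 1.55% for names of chromosomes (SD, n = 10). Names of other species, the class of the 3 rows, held 13.0 ± 2.98, 10.0 ± 1.95 and 7.22 ± 1.36%, a lower share at 32 °C. These shares are of library totals, while the class median of 0.75 comes from the TMM fit, so they are on unlike scales.

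**Figure D4:**
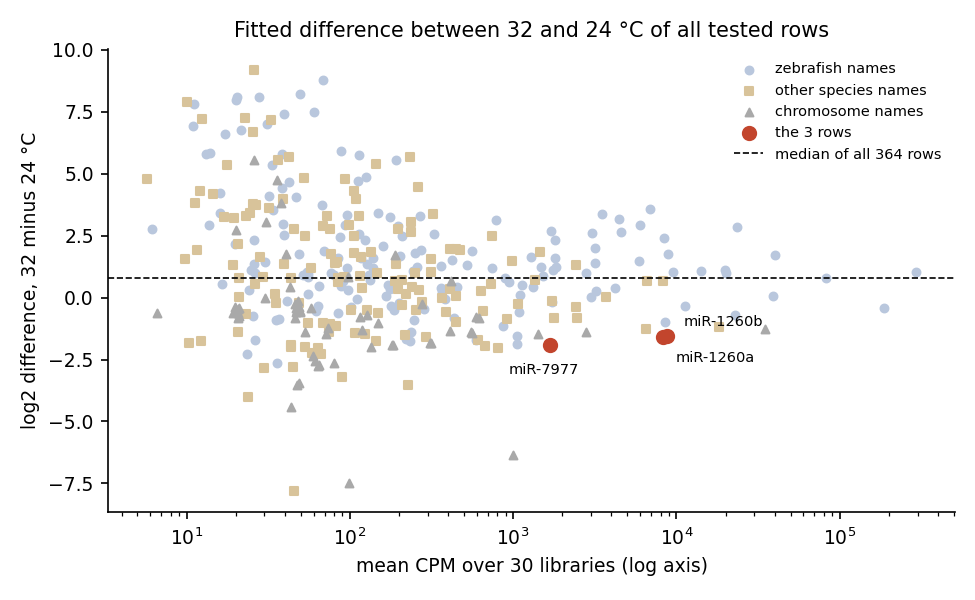
Fitted log2 difference between 32 and 24 °C against mean CPM (log axis) for the 364 tested rows, by kind of name, with the 3 rows in red and the median of all rows as a dashed line at 0.81. Each of the 3 lies below the median row, from −1.56 to −1.90, and many sparse rows lie further from it in either direction.

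The level of the 3 rows was lower in deeper libraries. Library totals ranged 38.0-fold, but counts of hsa-miR-1260a only 14.6-fold, those of hsa-miR-1260b 13.6-fold and those of hsa-miR-7977 27.3-fold. The deepest library, replicate 7 of the 32 °C controls with 7584818 counts, held 1305 reads of hsa-miR-1260a, close to the 1362 of the shallowest, replicate 3 of the same group with 199431 counts. For hsa-miR-7977 these libraries held 210 and 443 reads. Within groups, after removal of each group's mean, a doubling of the total went with a log2 increase of 0.33 ± 0.13 (SE) in the reads of hsa-miR-1260a, 0.30 ± 0.13 in hsa-miR-1260b and 0.31 ± 0.15 in hsa-miR-7977, where a constant share would give 1. The median over all tested rows was 1.31, and over the 76 rows counted in all 30 libraries it was 1.16. Among those 76 it was 1.20 over 45 zebrafish rows, 1.02 over 25 rows of other species and −0.0083 over 6 chromosome rows. A shallow slope was thus not particular to the 3 rows. By temperature, the slopes of hsa-miR-1260a, hsa-miR-1260b and hsa-miR-7977 were 0.55, 0.55 and 0.98 at 24 °C (n = 10). They were 0.62, 0.62 and 0.48 at 28 °C and 0.17, 0.14 and 0.13 at 32 °C, so each was shallowest at 32 °C.

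Measured as CPM of the library total (0.5 counts added), the within-group correlation with log2 total over 30 libraries was r = −0.736 (permutation within groups, two-sided p = 0.000830, adjusted over the 3 rows to 0.00124) with Spearman rho = −0.488 (permutation p = 0.0211, adjusted p = 0.0316) for hsa-miR-1260a. For hsa-miR-1260b r was −0.747 (permutation p = 0.000590, adjusted p = 0.00124) and rho −0.524 (permutation p = 0.0116, adjusted p = 0.0316). For hsa-miR-7977 r was −0.691 (permutation p = 0.00720, adjusted p = 0.00720) and rho −0.451 (permutation p = 0.0430, adjusted p = 0.0430). The total is the denominator of this measure, which by itself pushes r below 0 for a row whose reads do not follow the total. The rows were also chosen for a lower CPM at the warmest incubation temperature, which had the deepest library and the highest median total. That choice can favour rows whose CPM falls with the total, and the same libraries enter these tests. The p-values for library totals are therefore given as a description only. Among the 76 rows counted in all libraries the median r was 0.202, and the 3 rows ranked 4, 3 and 8 from the lowest, after mmu-miR-466i-5p at −0.811 and chr9_44794 at −0.771.

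The relation leant on the 2 libraries farthest from the median total, replicate 7 of the 32 °C controls and replicate 5 of the 32 °C LPS fish. Without them r was −0.568 for hsa-miR-1260a (permutation p = 0.0163), −0.589 for hsa-miR-1260b (permutation p = 0.0138) and −0.532 for hsa-miR-7977 (permutation p = 0.0622), and rho was −0.345, −0.369 and −0.298 (permutation p = 0.125, 0.102 and 0.194). By temperature the r of hsa-miR-1260a was −0.466 at 24 °C (permutation p = 0.285, adjusted p = 0.321 over 9 relations), −0.674 at 28 °C (permutation p = 0.139, adjusted p = 0.237) and −0.816 at 32 °C (permutation p = 0.0101, adjusted p = 0.0454). That of hsa-miR-7977 was −0.0401 (adjusted p = 0.888), −0.723 (adjusted p = 0.237) and −0.756 (adjusted p = 0.101, permutation tests). Leaving out the 2 farthest libraries of a temperature gave 0.638 for hsa-miR-1260a at 28 °C and −0.567 at 32 °C (permutation p = 0.120 and 0.234), and −0.0418 at 24 °C (permutation p = 0.914). At 24 °C the r of hsa-miR-1260a came close to 0 and at 28 °C it changed sign, while at 32 °C it kept its sign over 8 libraries without passing the threshold, as did hsa-miR-1260b (−0.606) and hsa-miR-7977 (−0.520, permutation p = 0.195 and 0.415). Spearman's rho was −0.842 at 32 °C for both hsa-miR-1260a and hsa-miR-1260b (permutation, adjusted p = 0.0396 over 9 relations) and −0.697 for hsa-miR-7977 (adjusted p = 0.146). At 28 °C rho was −0.164, −0.139 and −0.297 and at 24 °C −0.370, −0.527 and −0.176, none past the threshold (permutation). The p-values at 32 °C cannot be read as a separate test, since the rows were chosen by their CPM in those libraries.

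Levels in libraries of similar total are given as a description, since they come from the contrast by which the rows were chosen. This set, picked after the totals were seen, holds libraries with 600000 to 1200000 counts, of which 3, 6 and 5 were from 24, 28 and 32 °C. hsa-miR-1260a ran from 7576 to 9972 CPM of the total in the 24 °C libraries and from 8175 to 14785 in the 28 °C ones. In the 32 °C libraries it ran from 1571 to 6617, below the range of either other temperature. How many of the other tested rows lie apart like this in the set was not counted. The log2 ratio of geometric means between 32 and 24 °C was −1.62 in this set and −2.49 over all libraries on the same scale. hsa-miR-7977 ran from 2187 to 3186, from 1181 to 2679.7 and from 145 to 2107 CPM, with ratios of −2.52 in the set and −3.07 over all libraries. With the log2 total as a covariate in the fit the differences between 32 and 24 °C were −0.93 (hsa-miR-1260a), −0.90 (hsa-miR-1260b) and −1.34 (hsa-miR-7977), and without the 4 deepest libraries −1.14, −1.10 and −1.39. Other settings gave larger differences, of −2.24, −2.22 and −2.49 with zebrafish-row TMM and −2.01, −2.03 and −2.71 with voom, which also gave −2.28 for hsa-miR-7977 between 32 and 28 °C.

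**Figure D5:**
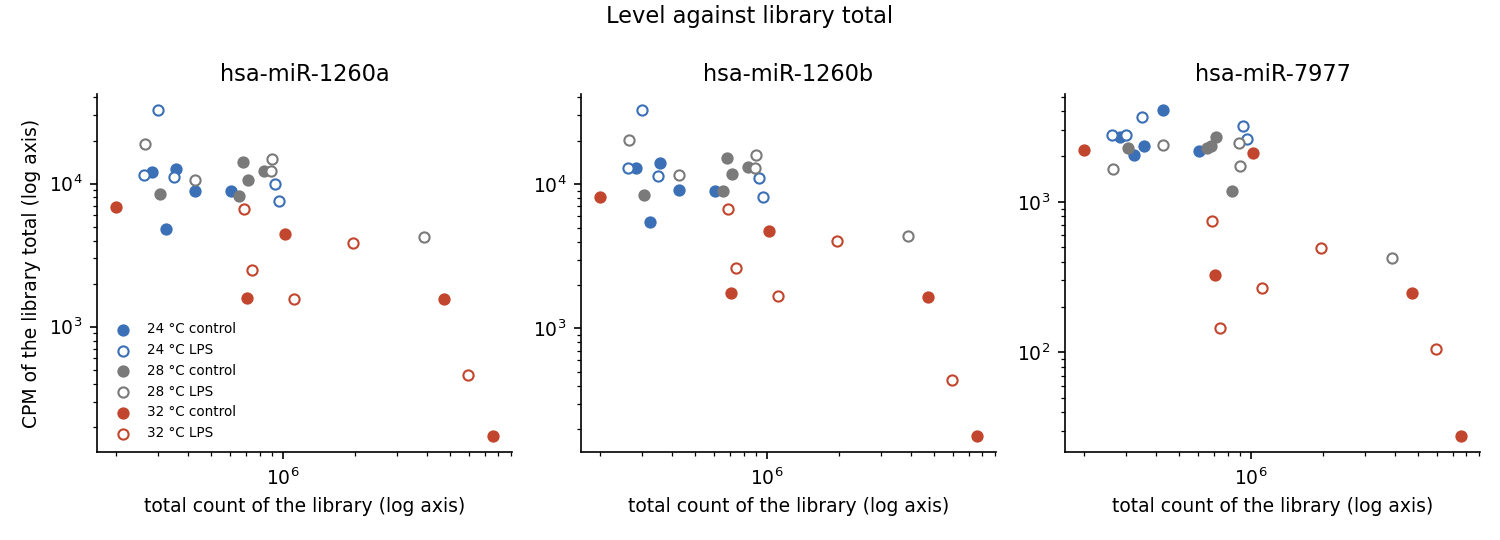
CPM of the library total against the total count of each library (both log axes), by incubation temperature, with filled points for controls and open points for LPS fish. The deepest library, with 7584818 counts, has the lowest level of each row. Between 600000 and 1200000 counts the 32 °C libraries of hsa-miR-1260a (1571 to 6617 CPM) lie below those at 24 and 28 °C. Those of hsa-miR-7977 (145 to 2107 CPM) overlap the 28 °C libraries (1181 to 2679.7 CPM).

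The rows whose pattern over libraries was most like these were each other and a few rows without a zebrafish name. By Pearson's r of log2 CPM over 30 libraries (a description, as libraries share depth and composition) the closest to hsa-miR-1260a after hsa-miR-1260b were hsa-miR-7977 (0.872), chr13_7690 (0.840), gmo-miR-125a-5p (0.836) and chr1_395 (0.836). The name gmo-miR-125a-5p is that of an Atlantic cod miRNA of the miR-125 family, and the chromosome names carry no annotation. For hsa-miR-7977 they were hsa-miR-1260b (0.876), hsa-miR-1260a (0.872), chr9_44794 (0.846), chr1_395 (0.832) and gmo-miR-125a-5p (0.820). With group means removed chr9_44794 (0.832) and chr1_395 (0.817) stood nearest to hsa-miR-7977, ahead of hsa-miR-1260b (0.815), and gmo-miR-125a-5p (0.803) and chr9_43244-2 (0.783) followed the pair for hsa-miR-1260a. The nearest zebrafish-named row over libraries was miR-92b-3p, of the miR-92 family, with 0.771 for hsa-miR-1260a and 0.816 for hsa-miR-7977. Over the 361 rows other than the 3, the median r with hsa-miR-1260a was −0.308, with −0.430 over zebrafish rows and 0.107 over chromosome rows, and 10 rows had an r over 0.7. Between 32 and 24 °C the fitted log2 differences of these alike rows were −1.27 (chr13_7690), −1.19 (gmo-miR-125a-5p), −1.46 (chr1_395) and −1.38 (chr9_44794). These rows were picked for their likeness, over all temperatures, to rows chosen for a lower level at 32 °C. That choice favours negative values, so the differences are no separate evidence on temperature.

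Few rows with other miRNA names noted in mammals to overlap abundant small RNAs had counts. A list of 25 such names (fragments of tRNA, U2 snRNA, rRNA, snoRNA and vault RNA) matched 22 rows, 19 besides the 3 described, of which 4 had any count and 2 were tested. Several of the names had no row at all, so reads could not be counted under them, and their abundance is unknown. hsa-miR-4454, whose human name is linked to a tRNA, was counted in 10 of 30 libraries with a mean of 23.1 CPM. hsa-miR-663a, linked to ribosomal RNA, was counted in 26 with 66.8 CPM. Their fitted log2 differences between 32 and 24 °C were 3.31 and −2.26, of opposite sign, and neither was called in the contrasts of LPS or of 24 and 28 °C. None reached a mean of 100 CPM. hsa-miR-1260a, hsa-miR-1260b and hsa-miR-7977 are also on that list, and they were chosen for high counts. Their place above its other rows thus follows from the choice and is not a result.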

How the data were processed

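Per the labels' protocols, 50 ng of total RNA went into each small RNA library, with adapters ending in 4 random bases and amplification over 22 PCR cycles. Tools listed in the submitters' processing notes, with no role stated, are DESeq2 1.11.1, FastQC 0.11.5, cutadapt 1.12 and bcl2fastq. For the aligner, counter, build and miRNA reference, names were not given in the sources used here. Whole-number read counts per row and library, not normalized, are what the authors deposited. Removal of PCR copies is not recorded.

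Rows were kept with edgeR 4.0.16 filterByExpr on the 6 groups (364 rows), scaled with TMM (factors 0.535 to 1.49) and fitted together in a robust quasi-likelihood model of the 6 group means, leaving 24 degrees of freedom. The threshold was an adjusted p of 0.05 over all rows. Intervals use the fitted SE. Ratios were compared by exact permutation and library totals by 100000 permutations within groups (SciPy 1.17.1). Alternatives were DESeq2 1.42.0, limma 3.58.1 voom with library weights, other scalings and filters, summed rows, fewer groups, a replicate block, totals as covariate, equal totals (199431 counts) and libraries left out. The scripts were tested on simulated data. A count of 0 allows 3 counts, which no row here needed. The 60 within-group library pairs differed by a chi-squared of at least 147 for each degree of freedom, so no library was a copy of another in its group. Pairs from different groups were not compared. Replicate numbers were not taken to pair libraries.

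The rows described and the lists were chosen with earlier results of these data known. Named beside the 3 rows were all rows sharing their names, the 5 rows most alike by r, neighbours in abundance within 5 ranks, and fragment names with 100 CPM or more. miR-92b-3p, hsa-miR-4454, hsa-miR-663a, mmu-miR-466i-5p, hsa-miR-155-5p, gmo-miR-223a-3p and oni-miR-150, where it is named as a leukocyte row, fall outside that rule. They were chosen after their values were seen.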

Additional observations from a re-analysis of the deposited data

Results flagged for a closer look

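Of 30 sets of 5 libraries examined (the 3 rows and 2 ratios in 6 groups), 3 held a library far from its group. Chance alone flags about 1 in 20 sets if values are normally distributed. The CPM and ratios were not transformed, and the rate of chance flags for them was not worked out. The first and second flags concern hsa-miR-1260a and hsa-miR-1260b in 1 library. The levels of these rows correlated at r = 0.999 over libraries, so the flags count as 1 observation. In replicate 8 of the LPS fish from 24 °C, hsa-miR-1260a stood at 25351 CPM and hsa-miR-1260b at 25307 CPM, where the other 4 libraries of the group held at most 8754 CPM of hsa-miR-1260a. Its hsa-miR-7977, at 2137 CPM, lay inside the group. Without this library, with rows and TMM factors kept, the LPS difference at 24 °C was −0.08 in hsa-miR-1260a and −0.05 in hsa-miR-1260b. Replicate 3 of the 24 °C controls held 4614 CPM of hsa-miR-7977, where the other 4 held 1869 to 2169 CPM.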

How the results depend on the processing

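None of the 3 rows passed the threshold for LPS, 24 against 28 °C or the joint test under any alternative (smallest adjusted p 0.177). The differences between 32 °C and the other temperatures kept their direction in each alternative that gave them. The replicate block and the fit of only the groups compared did not give them. The rows were chosen by that direction in these counts, so this is a description. Apart from leaving out single libraries, hsa-miR-1260a ran from −2.24 to −0.93 between 32 and 24 °C. DESeq2 called 21, 18 and 1 rows of the whole table for LPS at 24, 28 and 32 °C, 19 on average, 35 between 24 and 28 °C and 1 in the joint test. Voom called 4 at 28 °C, 1 at 32 °C, 0 on average, 5 between 24 and 28 °C and 2 jointly. No count filter gave 4 at 28 °C, 10 between 24 and 28 °C and 2 jointly. The average LPS count of 2 became 0 with zebrafish-row TMM, the stricter filter, equal totals and when the 4 deepest libraries were left out. It was 1 with the total as covariate, and equal totals gave 6 between 24 and 28 °C.

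Several values changed sign, and not all of them were near 0 in the main fit. hsa-miR-7977 with LPS at 24 °C was 0.073 with DESeq2 and RLE, 0.0674 with equal totals, 0.13 with voom, 0.16 with total-count scaling, 0.015 with zebrafish-row TMM, 0.26 without a filter, 0.12 with the stricter one, 0.0583 with only the groups compared, 0.14 with the covariate and 0.027 without the 4 deepest libraries. At 28 °C it was 0.13 with zebrafish-row TMM, 0.018 with equal totals and 0.093 without the 4 deepest. At 32 °C it was 0.090 with voom, against −1.32 in the main fit, the LPS value farthest from 0. hsa-miR-1260b with LPS at 32 °C was −0.13 with DESeq2 and RLE, −0.094 with total counts, −0.018 with zebrafish-row TMM and −0.10 without the 4 deepest. With voom hsa-miR-1260a and hsa-miR-1260b at 28 °C were −0.065 and −0.098. Between 24 and 28 °C they were 0.039 and 0.019 with total counts and 0.038 and 0.014 with zebrafish-row TMM. There hsa-miR-7977 was −0.31 without a filter, against 0.39 in the main fit. The cause was not tested. The r of hsa-miR-7977 with library total went from −0.69 to −0.53 without the 2 farthest libraries (permutation p = 0.0622). As said above, the p-values for library totals are a description only.

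Replicate numbers showed no pairing of libraries at 24 or 28 °C. Deviations of same-numbered libraries correlated at 0.0223 to 0.0742 at 24 °C and −0.0718 to 0.0529 at 28 °C, and 0 of 3 numbers matched best at either. At 32 °C they correlated at 0.233 and 0.325, against a median of −0.138 for libraries of unlike number. Of these pairs, 1 of 2 controls and 1 of 2 LPS libraries correlated best with their own number. With only 2 pairs, whether the numbers pair libraries at 32 °C cannot be told. With the replicate block the average LPS count was 0, the other counts were 0 and hsa-miR-7977 at 28 °C was 0.080.

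Leaving out each library in turn, also with rows and factors kept (added after seeing the data), gave LPS ranges at 24 °C of −0.077 to 1.41 (hsa-miR-1260a), −0.049 to 1.38 (hsa-miR-1260b) and −0.16 to 0.84 (hsa-miR-7977), at 28 °C of −0.040 to 0.54, −0.051 to 0.54 and −0.49 to 0.076, and at 32 °C of −0.22 to 0.89, −0.30 to 0.77 and −1.75 to −0.68. The highest values at 24 °C came without replicate 3 of the 28 °C controls, since the rows kept and the scaling then change. Counts of called rows ran from 0 to 3 for LPS at 28 °C, 0 to 4 on average and 0 to 21 between 24 and 28 °C, where hsa-miR-7977 ran from −0.39 to 0.47. The log2 ratio of hsa-miR-7977 to the other rows, LPS minus control, ran from −0.45 to 0.071 at 24 °C and −1.10 to −0.59 at 32 °C, the lowest without replicate 5 of the 32 °C LPS fish (exact permutation p = 0.0476, unadjusted).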
